A study of Mus musculus with 9 samples.

Results

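The integrins and focal adhesion proteins described here are 40 of the 15768 genes measured in the subclones SCC2 and SCC1 and in their parental mouse tumour line LLC1. They were chosen by gene name: 22 integrin chains, of which 14 are alpha and 8 are beta, and 18 surface partners, linkers, adaptors and kinases that meet integrins at the membrane. Itga4, Itga9, Itgad, Itgam and Fermt1 belong to the same families but are not listed under these names among the 15768 genes, so they were not analysed here. LLC1 is a Lewis lung carcinoma line, and each subclone was grown out of it from a single cell by limiting dilution, so each subclone is 1 clone and differences from LLC1 are differences of that clone. The comparison asks how far the adhesion genes of a single-cell derivative differ from those of its mixed parental line. SCC2, SCC1 and LLC1 are all labelled wild-type, untreated tumour cells from lung, grown in DMEM with 10% fetal bovine serum and antibiotics at 37 °C and 5% CO2. SCC2 and SCC1 had been passaged between 5 and 8 times. No passage number is given for LLC1, so subcloning and passage number cannot be told apart in the comparisons with LLC1. RNA was sequenced from 3 libraries of SCC2, 3 of SCC1 and 3 of LLC1, and the labels do not say whether those 3 are separate cultures. Each p-value therefore measures the spread between these libraries only.

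Integrins are receptors made of an alpha and a beta chain, and the pair decides what a cell can hold on to: some pairs bind laminin, some collagen, some the RGD motif of fibronectin and vitronectin, and a leukocyte group binds other cells. Talin and kindlin bind the tail of the beta chain and switch the receptor on. Vinculin, parvin and zyxin tie it to actin, while the kinase FAK (Ptk2) and the adaptors paxillin (Pxn) and p130Cas (Bcar1) pass the signal on.

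Promoter windows were read from RefSeq (GRCm38.p6), 250 bases before to 50 after a gene's start, for Itga3 and for the pair of tested members that carry a CArG box, the element bound by serum response factor (Vcl and Fermt2). Capitals mark a CArG box or, in Vcl further along, the TEAD core GGAATG.
Vcl: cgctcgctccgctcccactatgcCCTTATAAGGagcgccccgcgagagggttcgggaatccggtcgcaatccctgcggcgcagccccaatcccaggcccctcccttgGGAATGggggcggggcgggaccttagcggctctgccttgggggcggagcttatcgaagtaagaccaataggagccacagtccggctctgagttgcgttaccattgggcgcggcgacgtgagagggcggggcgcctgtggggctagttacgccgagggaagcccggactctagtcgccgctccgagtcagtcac
Fermt2: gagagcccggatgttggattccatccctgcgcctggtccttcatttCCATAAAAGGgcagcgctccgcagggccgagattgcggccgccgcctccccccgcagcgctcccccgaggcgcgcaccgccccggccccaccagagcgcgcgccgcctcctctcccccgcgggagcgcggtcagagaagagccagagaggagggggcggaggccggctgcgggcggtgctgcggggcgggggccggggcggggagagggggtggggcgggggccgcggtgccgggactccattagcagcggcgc
Itga3: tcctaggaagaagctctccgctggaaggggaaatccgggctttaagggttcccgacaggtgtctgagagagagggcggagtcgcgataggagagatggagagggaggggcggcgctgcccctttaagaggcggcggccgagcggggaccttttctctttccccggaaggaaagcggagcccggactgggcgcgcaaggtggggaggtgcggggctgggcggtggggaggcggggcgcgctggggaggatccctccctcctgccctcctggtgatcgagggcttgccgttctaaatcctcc
The Vcl window lies at chr14:20929148-20929447 on the plus strand, with its CArG box beginning 227 bases before the start and its TEAD core 143 bases before it. Fermt2 lies on the minus strand at chr14:45530016-45530315, and its CArG box begins 204 bases before the start. Itga3 was read on the minus strand at chr11:95076665-95076964, 1 of 2 windows listed for it, and held none of the motifs searched. A CArG box was found on either strand in 1.63% of all 32851 windows, the AP-1-like pattern TGANTCA in 7.81% and the TEAD core GGAATG in 14.7%. The middle base N of the AP-1-like pattern could be any base, which is looser than the AP-1 site itself. Of the 40 members, 28 had a window, 34 windows in all, and each of the 3 motifs was found in 3 of these. The CArG box was in Vcl, Fermt2 and Itgb6, the AP-1-like pattern in Itgax, Zyx and the other Itga3 window, and the TEAD core in Vcl, Itga10 and Itgb1. A match describes these letters and does not show a bound site.

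Libraries held between 17094808 and 19398657 fragments, worked back from the deposited values, and no library stood apart from its line. Values are FPKM, which divides fragments by transcript length and library size, so levels can be set beside each other between genes as well as between lines. Markers of other cells were checked against the label. Of 9 lung epithelial markers 5 were in the table, and their summed level was 1.13 to 1.25 FPKM in SCC2, 0.356 to 0.912 FPKM in SCC1 and 0.975 to 1.02 FPKM in LLC1, and none of them passed the filter for testing. Endothelial markers summed to at most 0.285 FPKM in any library. The 4 tested macrophage and leukocyte markers, Cd68, Cd14, Mrc1 and Ly6g, were all higher in SCC1 than in LLC1, although Mrc1 and Ly6g passed the filter through SCC1 alone. The summed list reached 19.2 to 19.7 FPKM in SCC2, 29.6 to 33.6 FPKM in SCC1 and 16.1 to 17.7 FPKM in LLC1. Most of this sum was Cd14 and Cd68 in each line. Of the 14 markers listed 10 were measured, and the 6 not tested, Csf1r and Lyz2 among them, averaged at most 0.468 FPKM in any line. In such bulk samples, fewer cells of a type and less RNA per cell cannot be told apart.

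The lines differed in the levels of several adhesion genes. SCC2 held little Itga3, a laminin receptor chain, at 15.5 ± 0.41 FPKM in SCC2, 43.3 ± 1.5 FPKM in SCC1 and 45.2 ± 2.4 FPKM in LLC1. Vcam1, a ligand of leukocyte integrins, was low in both subclones, at 17.2 ± 0.47 FPKM in SCC2, 19.0 ± 0.33 FPKM in SCC1 and 38.4 ± 0.59 FPKM in LLC1. SCC1 had less of Itgb1, Cd44, Tln1, Parva and Lims1 than LLC1 and more of Itgb7 and Parvb, and Itgb7 averaged 44.7 ± 1.4 FPKM in SCC2, 87.5 ± 1.2 FPKM in SCC1 and 55.2 ± 1.5 FPKM in LLC1 (SD, n = 3 libraries a line, as in all means here). Vcl and Fermt2, which link integrins to actin and switch them on, were lower in both subclones than in LLC1.

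Of the 40 members, 29 reached 1 FPKM in at least 3 of the 9 libraries and were tested with limma on log2(FPKM + 1), a scale that understates the change of low genes. Of these, 27 had a mean of at least 1 FPKM in every line, while Itga2b and Itgb4 had a line under it and so passed only through the lines where they are high. In SCC2 against LLC1, 20 of the 29 fell and 7 rose. Over all 10519 genes tested 67.6% were called in that comparison, 34.7% higher and 32.9% lower. The median of the members was -0.21 on the log2 scale against 0.01 for all genes. SCC1 against LLC1 gave 16 lower and 8 higher members, where 70.1% of all genes were called, 39.2% higher and 30.9% lower, and the medians were -0.15 for the members and 0.03 for all genes. Between the subclones, 14 members were lower and 11 higher in SCC2 than in SCC1, with 76.3% of all genes called, 37.0% higher and 39.4% lower, and medians of -0.03 and -0.00. Over the 27 members with every line mean at least 1 FPKM, the medians were -0.15 in SCC2 against LLC1, -0.24 in SCC1 against LLC1 and 0.02 in SCC2 against SCC1. Both comparisons with LLC1 use the same 3 LLC1 libraries. Calls with a log2 change of at least 0.5 in either direction covered 6 of 29 members in SCC2 against LLC1, where the share of all genes was 8.27%, 10 of 29 in SCC1 against LLC1, where it was 9.18%, and 15 of 29 between the subclones, where it was 16.8%. The 3 libraries of a line lay wholly apart from those of the other line for 27, 26 and 26 members in SCC2 against LLC1, SCC1 against LLC1 and SCC2 against SCC1, beside 70.7%, 72.3% and 77.9% of all genes.

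The 11 members that were not tested had a mean of at most 0.853 FPKM in every line. They were Itga2, Itga8, Itga11, Itgae, Itgal, Itgb3, Itgb6, Itgb8, Icam1, Fermt3 and Tns1. Icam1, a ligand of leukocyte integrins, averaged 0.0282 ± 0.013 FPKM in SCC2, 0.0208 ± 0.021 FPKM in SCC1 and 0.0147 ± 0.013 FPKM in LLC1. Itga11, a collagen-binding chain, is listed at 0 in all 6 libraries of SCC2 and SCC1 and at 0.0897, 0.123 and 0.131 FPKM in LLC1, which corresponds to as few as 3, 4 and 4 fragments. Itgb3, the beta chain of the platelet and vitronectin receptors, averaged 0.0243 ± 0.010 FPKM in SCC2, 0.117 ± 0.026 FPKM in SCC1 and 0.243 ± 0.056 FPKM in LLC1. Itga2, Itga8, Itgal and Itgb6 averaged at most 0.0914 FPKM in any line, with Itga8 and Itgb6 listed at 0 in SCC2 and SCC1. Itgb8, a beta chain that pairs with Itgav, was the highest of the 11 at 0.550 ± 0.044 FPKM in SCC2, 0.643 ± 0.097 FPKM in SCC1 and 0.853 ± 0.028 FPKM in LLC1.

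**Figure D1:**
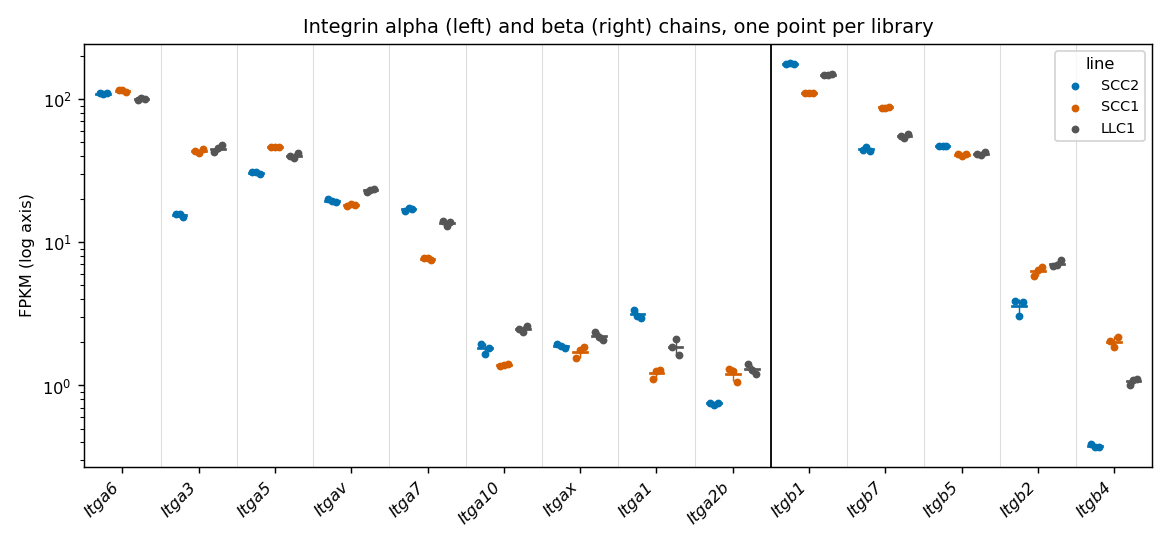
FPKM on a log axis of the 9 tested integrin alpha chains (left of the line) and the 5 tested beta chains (right), with 1 point per library, the mean as a bar and the SD as a vertical line, in SCC2, SCC1 and LLC1. Itga6 and Itgb1 are the highest chain of their class in every line, and Itga3 sits lower in SCC2 than in SCC1 and LLC1.

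Itga3, whose product pairs with Itgb1 to bind laminins of basement membranes, was measured at 15.8, 15.7 and 15.0 FPKM in SCC2, 43.3, 41.8 and 44.8 FPKM in SCC1, and 42.8, 45.2 and 47.5 FPKM in LLC1. All 3 SCC2 libraries were lower than every library of SCC1 and LLC1, while SCC1 and LLC1 overlapped. The log2 change in SCC2 was -1.48 (SE 0.039, limma adjusted p = 8.07e-11) against LLC1 and -1.43 (SE 0.039, limma adjusted p = 2.87e-11) against SCC1. SCC1 against LLC1 gave -0.06 (SE 0.039, limma adjusted p = 0.203) and was not called, although quantile normalization, voom on the recovered fragments, leaving out LLC1 replicate 1 (adjusted p = 0.0414) and removal of the chromosome median each gave a call in the lower direction.

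Itga6, the other widely used laminin-binding chain, stood at 109.6, 108 and 109.7 FPKM in SCC2, 115, 116 and 112 FPKM in SCC1, and 98.2, 101 and 99.7 FPKM in LLC1. It was the most abundant alpha chain in each line, and both subclones were higher than LLC1 in every library, by 0.13 in SCC2 and 0.20 in SCC1 on the log2 scale (limma adjusted p = 7.43e-05 and 2.18e-06). SCC2 against SCC1 was -0.07 (limma adjusted p = 0.00642), and 0.09 with the chromosome 2 medians removed, which is the other direction. Against LLC1, with those medians removed, the changes were 0.17 in SCC2 and 0.10 in SCC1. Itga7, a laminin-binding chain best known from muscle, gave 16.6, 17.5 and 17.0 FPKM in SCC2, 7.74, 7.72 and 7.48 FPKM in SCC1, and 14.0, 13.0 and 13.8 FPKM in LLC1. The lines did not overlap: SCC2 was highest and SCC1 lowest, with a log2 change of 0.30 (SE 0.034, limma adjusted p = 1.03e-05) in SCC2 against LLC1 and -0.76 (SE 0.034, limma adjusted p = 4.1e-09) in SCC1 against LLC1. SCC2 against SCC1 gave 1.06 (SE 0.034, limma adjusted p = 1.23e-10). Itga7 shares bases with Mettl7b on the opposite strand, which averaged 11.2 FPKM in SCC2, 9.39 FPKM in SCC1 and 7.52 FPKM in LLC1, and no source used here says if strand entered the counting. Itgae, Fermt3 and Zyx likewise overlap Haspin, Trpt1 and Epha1 on the opposite strand.

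The make-up of the laminin-binding chains differed while their sum moved less. Itga3, Itga6 and Itga7 together amounted to 142 ± 0.22 FPKM in SCC2, 165 ± 0.72 FPKM in SCC1 and 159 ± 3.2 FPKM in LLC1. Itga3 made up 10.9 ± 0.29% in SCC2, 26.2 ± 0.95% in SCC1 and 28.5 ± 0.96% in LLC1. Itga6 made up 77.1 ± 0.45% in SCC2, 69.2 ± 0.88% in SCC1 and 62.9 ± 0.85% in LLC1, and Itga7 12.0 ± 0.33% in SCC2, 4.62 ± 0.073% in SCC1 and 8.59 ± 0.43% in LLC1. These 3 chains held 71.0 ± 0.41% in SCC2, 70.2 ± 0.26% in SCC1 and 68.9 ± 0.45% in LLC1 of the FPKM of all alpha chains measured, so the laminin class was the bulk of these in each line.

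**Figure D2:**
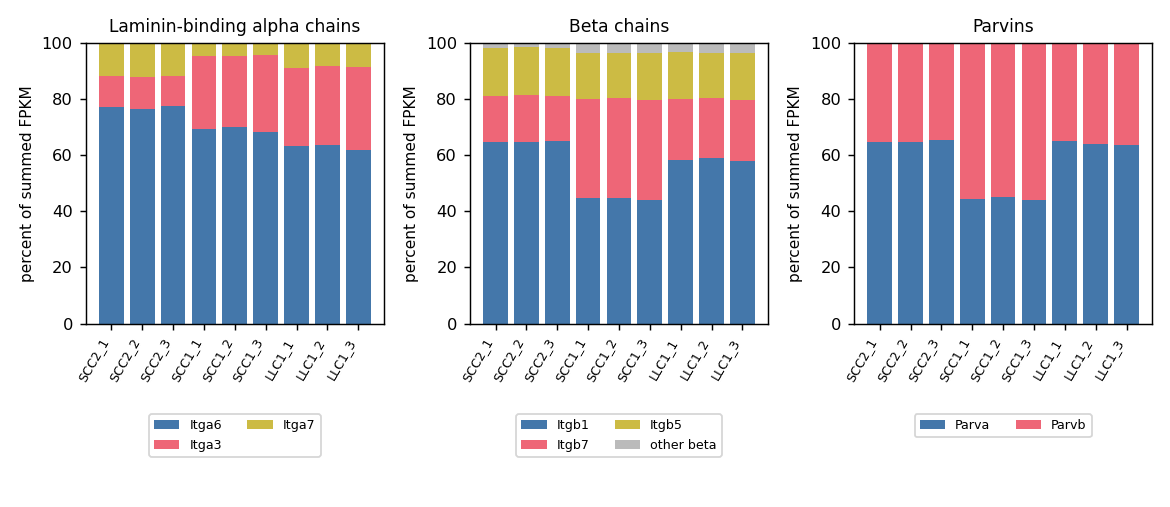
Percent of summed FPKM in each library that came from each laminin-binding alpha chain (left), each beta chain (middle) and each parvin (right), for SCC2, SCC1 and LLC1. Itga3 takes 10.9% of the laminin-binding chains in SCC2 against 28.5% in LLC1, and Itgb7 and Parvb take their highest shares in SCC1.

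Collagen-binding chains were low in these cells. Itga1 averaged 3.14 ± 0.20 FPKM in SCC2, 1.22 ± 0.10 FPKM in SCC1 and 1.87 ± 0.25 FPKM in LLC1. Itga10 averaged 1.82 ± 0.15 FPKM in SCC2, 1.39 ± 0.028 FPKM in SCC1 and 2.48 ± 0.10 FPKM in LLC1. Itga1 was higher in SCC2 and lower in SCC1 than in LLC1, with log2 changes of 0.53 (SE 0.068, limma adjusted p = 2.58e-05) and -0.37 (SE 0.068, limma adjusted p = 0.00046), and no libraries of the 3 lines overlapped. It lies on chromosome 13, whose 405 tested genes had a median of 0.35 in SCC2 against LLC1, and with that median removed its change was 0.18. Pelo lies within Itga1 on the same strand, and averaged 20.2 FPKM in SCC2, 16.7 FPKM in SCC1 and 14.5 FPKM in LLC1, so reads of the pair may be mixed. Itga10 was lower in both subclones, at -0.31 in SCC2 and -0.54 in SCC1 on the log2 scale.

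Chains that bind the RGD motif included the fibronectin receptor Itga5 and the vitronectin receptor Itgav. For Itga5, the libraries read 31.1, 30.9 and 30.2 FPKM in SCC2, 46.1, 46.4 and 46.5 FPKM in SCC1, and 40.0, 38.8 and 42.2 FPKM in LLC1. SCC2 was lowest and SCC1 highest with no overlap, and the log2 changes were -0.38 (SE 0.029, limma adjusted p = 3.66e-07) in SCC2 against LLC1 and 0.20 (SE 0.029, limma adjusted p = 8.31e-05) in SCC1 against LLC1. Between the subclones, SCC2 differed from SCC1 by -0.58 (SE 0.029, limma adjusted p = 4.84e-09). Itga5 lies on chromosome 15, as do Itgb7, Parvb and Ptk2, and the 431 tested genes of that chromosome had a median log2 change of -0.26 in SCC2 against LLC1, 0.16 in SCC1 against LLC1 and -0.44 in SCC2 against SCC1. With the medians of its chromosome removed, Itga5 was at -0.12 in SCC2 against LLC1 (limma adjusted p = 0.00317), at 0.03 in SCC1 against LLC1, no longer called (adjusted p = 0.36), and at -0.13 between the subclones.

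Itgav, which pairs with several beta chains, was present at 20.0, 19.4 and 19.1 FPKM in SCC2, 18.0, 18.5 and 18.1 FPKM in SCC1, and 22.3, 23.3 and 23.7 FPKM in LLC1. Every SCC2 and SCC1 library lay under every LLC1 library, with log2 changes of -0.23 (SE 0.030, limma adjusted p = 3e-05) and -0.32 (SE 0.030, limma adjusted p = 1.52e-06). SCC2 exceeded SCC1 by 0.09 (limma adjusted p = 0.0121), a call lost without SCC2 replicate 1 (adjusted p = 0.0522). Itga2b, the platelet fibrinogen receptor chain, was near the detection filter at 0.748 ± 0.014 FPKM in SCC2, 1.20 ± 0.13 FPKM in SCC1 and 1.30 ± 0.098 FPKM in LLC1, and Itgax, a leukocyte chain, at 1.88 ± 0.057 FPKM in SCC2, 1.72 ± 0.15 FPKM in SCC1 and 2.21 ± 0.15 FPKM in LLC1. Itga2b was lower in SCC2 than in LLC1 (log2 change -0.39, SE 0.057, limma adjusted p = 7.98e-05) and in SCC1 (log2 change -0.33, SE 0.057, limma adjusted p = 0.000219), the second not called with the chromosome 11 medians removed (adjusted p = 0.0875). Itga2b passed the filter only through SCC1 and LLC1, so its low level in SCC2 supports nothing. The platelet markers, Itga2b included, summed to 2.19 to 2.40 FPKM in SCC2, 4.30 to 5.43 FPKM in SCC1 and 3.54 to 4.14 FPKM in LLC1. Among them Ppbp averaged 1.36 ± 0.15 FPKM in SCC2, 3.54 ± 0.50 FPKM in SCC1 and 2.34 ± 0.41 FPKM in LLC1. Pf4 ran otherwise, at 0.215 ± 0.050 FPKM in SCC2, 0.0921 ± 0.092 FPKM in SCC1 and 0.0946 ± 0.0043 FPKM in LLC1. Gp1ba averaged at most 0.0198 FPKM in any line. The part of these markers in the Itga2b result was not tested. Itgax was lower in SCC2 than in LLC1 by a narrow margin (log2 change -0.15, SE 0.055, limma adjusted p = 0.0273). The call was lost without LLC1 replicate 1 (adjusted p = 0.107), without SCC2 replicate 2 (0.0589) and without SCC2 replicate 3 (0.0784). It was also lost with quantile normalization, at -0.05 (limma adjusted p = 0.431). The change of Itgax in SCC1 was -0.24 (SE 0.055, limma adjusted p = 0.0021).

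Among beta chains, Itgb1, the common partner of the laminin, collagen and fibronectin chains, was the most abundant in every line. Its libraries stood at 177, 178 and 177 FPKM in SCC2, 111, 110.1 and 110.4 FPKM in SCC1, and 148, 148 and 149 FPKM in LLC1. SCC2 was the highest and SCC1 the lowest, each line apart from the others, and the log2 changes were 0.26 (SE 0.015, limma adjusted p = 4.14e-08) in SCC2 against LLC1 and -0.42 (SE 0.015, limma adjusted p = 5.52e-10) in SCC1 against LLC1. For SCC2 against SCC1 the change was 0.68 (SE 0.015, limma adjusted p = 6.18e-12). With the median of chromosome 8 removed, the change in SCC2 against LLC1 was 0.15.

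Itgb7, best known as the beta chain of lymphocyte homing receptors, ran the other way, at 44.5, 46.3 and 43.4 FPKM in SCC2, 86.4, 87.1 and 88.8 FPKM in SCC1, and 54.9, 53.9 and 56.8 FPKM in LLC1. SCC1 was highest and SCC2 lowest, without overlap. The log2 change was -0.30 (SE 0.027, limma adjusted p = 1.81e-06) in SCC2 against LLC1 and 0.65 (SE 0.027, limma adjusted p = 2.09e-09) in SCC1 against LLC1. Set against SCC1, SCC2 was at -0.95 (SE 0.027, limma adjusted p = 4.51e-11). With the chromosome 15 medians removed, the change in SCC2 against LLC1 was -0.04 and no longer called (limma adjusted p = 0.224), while SCC1 against LLC1 was called at 0.49 (adjusted p = 2.99e-08) and SCC2 against SCC1 at -0.51 (adjusted p = 1.25e-08). Itgae, an alpha partner of Itgb7, averaged 0.0509 ± 0.0086 FPKM in SCC2, 0.0632 ± 0.014 FPKM in SCC1 and 0.0936 ± 0.030 FPKM in LLC1.

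Itgb1 supplied 64.8 ± 0.23% in SCC2, 44.6 ± 0.43% in SCC1 and 58.3 ± 0.51% in LLC1 of all beta chain FPKM. Itgb7 supplied 16.3 ± 0.43% in SCC2, 35.3 ± 0.27% in SCC1 and 21.7 ± 0.28% in LLC1. The whole beta class summed to 274 ± 1.7 FPKM in SCC2, 248 ± 2.4 FPKM in SCC1 and 255 ± 3.5 FPKM in LLC1, and the alpha class to 199.7 ± 1.3 FPKM in SCC2, 236 ± 0.39 FPKM in SCC1 and 230.1 ± 4.4 FPKM in LLC1. Itgb5, the Itgav partner in vitronectin binding, averaged 47.0 ± 0.29 FPKM in SCC2, 40.9 ± 0.93 FPKM in SCC1 and 41.7 ± 0.99 FPKM in LLC1. It was higher in SCC2 than in LLC1 by 0.17 (SE 0.025, limma adjusted p = 7.36e-05) and than in SCC1 by 0.20 (SE 0.025, limma adjusted p = 1.46e-05), but with the medians of chromosome 16 removed it was at -0.04 against LLC1 (adjusted p = 0.143) and at -0.08 against SCC1 (adjusted p = 0.0114), the opposite direction.

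Itgb2, the beta chain of leukocyte integrins, was measured at 3.87, 3.03 and 3.81 FPKM in SCC2, 5.78, 6.36 and 6.70 FPKM in SCC1, and 6.83, 6.96 and 7.50 FPKM in LLC1. SCC2 was below both other lines in every library, with log2 changes of -0.83 (SE 0.072, limma adjusted p = 1.22e-06) against LLC1 and -0.67 (SE 0.072, limma adjusted p = 3.97e-06) against SCC1. SCC1 against LLC1 was not called at -0.15 (SE 0.072, limma adjusted p = 0.0759), but was called lower by voom on the recovered fragments (adjusted p = 0.0102), in a fit of the 6 libraries of SCC1 and LLC1 alone (0.029) and without SCC2 replicate 2 (0.022). With the chromosome 10 median of -0.19 removed, that change was 0.04, the other direction, and not called (limma adjusted p = 0.653). The summed macrophage and leukocyte markers were highest in SCC1, at 29.6 to 33.6 FPKM. Most of that sum was Cd14 and Cd68, which averaged 18.4 ± 0.93 FPKM and 9.14 ± 1.1 FPKM in SCC1. Of the 4 tested, in SCC2 against LLC1, Cd14 was higher (15.6 ± 0.25 FPKM in SCC2, 12.0 ± 0.77 FPKM in LLC1), Cd68 was lower (3.05 ± 0.24 FPKM in SCC2, 4.11 ± 0.35 FPKM in LLC1), and Mrc1 and Ly6g were not called. Their part in the Itgb2 result was not tested. Itgb4, the Itga6 partner of hemidesmosomes, averaged 0.378 ± 0.011 FPKM in SCC2, 2.03 ± 0.17 FPKM in SCC1 and 1.07 ± 0.059 FPKM in LLC1, and passed the filter only through the lines where it is high. Its log2 change was -0.59 (SE 0.054, limma adjusted p = 1.76e-06) in SCC2 against LLC1 and 0.54 (SE 0.054, limma adjusted p = 2.91e-06) in SCC1 against LLC1. The change between SCC2 and SCC1 was -1.13 (SE 0.054, limma adjusted p = 3.06e-09). As a low gene it depended on the scale, and SCC2 against LLC1 ran from -1.50 to -0.32 over the alternatives, always lower. The epithelial markers in the table summed to 232 to 233 FPKM in SCC2, 446 to 456 FPKM in SCC1 and 333 to 342 FPKM in LLC1. This sum was nearly all Krt8 and Krt18, which had the same order of lines as Itgb4. Krt19 did not follow that order: its mean was highest in LLC1, and SCC1 against LLC1 was not called. Cdh1 was hardly detected in any line. The part of these markers in the Itgb4 result was not tested.

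Of the surface partners, Vcam1, the immunoglobulin-like ligand of leukocyte alpha 4 integrins, was at 17.2, 17.7 and 16.8 FPKM in SCC2, 18.7, 19.3 and 19.0 FPKM in SCC1, and 38.7, 37.7 and 38.8 FPKM in LLC1. Mean levels were 0.449 times that of LLC1 in SCC2 and 0.494 times in SCC1, and no library of a subclone reached LLC1. The log2 changes of -1.11 (SE 0.028, limma adjusted p = 5.61e-11) in SCC2 and -0.98 (SE 0.028, limma adjusted p = 8.37e-11) in SCC1 were both called. SCC2 was below SCC1 by a smaller step (log2 change -0.13, SE 0.028, limma adjusted p = 0.000934).

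Cd44, the hyaluronan receptor that gathers at adhesion sites, gave 101, 101 and 104 FPKM in SCC2, 57.2, 57.2 and 56.0 FPKM in SCC1, and 87.4, 85.5 and 85.7 FPKM in LLC1. SCC2 was above LLC1 and SCC1 below it in every library. The log2 changes were 0.24 (SE 0.020, limma adjusted p = 6.84e-07) in SCC2 against LLC1 and -0.59 (SE 0.020, limma adjusted p = 3.43e-10) in SCC1 against LLC1. SCC2 against SCC1 gave 0.84 (SE 0.020, limma adjusted p = 1.09e-11). Removal of the chromosome 2 medians left these at 0.29, -0.69 and 0.99.

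**Figure D3:**
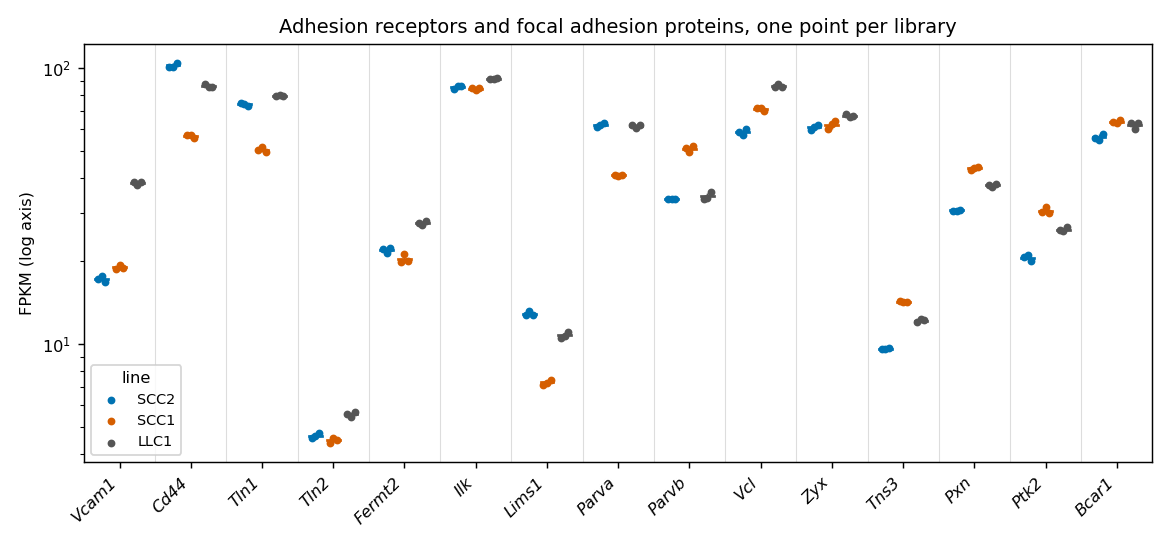
FPKM on a log axis of Vcam1, Cd44 and the 13 other tested members that are not integrin chains, with 1 point per library, the mean as a bar and the SD as a vertical line, in SCC2, SCC1 and LLC1. Vcam1 is lower in both subclones, and Cd44, Tln1, Lims1 and Parva are lowest in SCC1 while Parvb is highest there.

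Tln1, an activator that binds the beta tail and the main talin of these cells, was at 74.8, 74.3 and 73.0 FPKM in SCC2, 50.5, 51.8 and 49.9 FPKM in SCC1, and 79.2, 79.9 and 79.4 FPKM in LLC1. SCC1 was lowest, apart from the other lines, and SCC2 was also under LLC1 in each library. The log2 change was -0.10 (SE 0.020, limma adjusted p = 0.000732) in SCC2 against LLC1 and -0.64 (SE 0.020, limma adjusted p = 1.94e-10) in SCC1 against LLC1. Between the subclones, SCC2 differed from SCC1 by 0.54 (SE 0.020, limma adjusted p = 4.22e-10). Chromosome 4, where Tln1 lies, had a median of -0.33 over 614 genes in SCC1 against LLC1 and 0.29 in SCC2 against SCC1, and with these removed the changes were -0.31 and 0.24, both still called. Creb3 overlaps Tln1 on the opposite strand and averaged 13.5 FPKM in SCC2, 8.45 FPKM in SCC1 and 11.1 FPKM in LLC1.

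Fermt2, the kindlin-2 gene with the CArG box printed above, was at 22.1, 21.5 and 22.3 FPKM in SCC2, 19.9, 21.2 and 20.0 FPKM in SCC1, and 27.6, 27.1 and 28.0 FPKM in LLC1. Both subclones were below LLC1 without overlap, with log2 changes of -0.31 (SE 0.030, limma adjusted p = 2.51e-06) in SCC2 and -0.42 (SE 0.030, limma adjusted p = 1.91e-07) in SCC1. Between the subclones the change was 0.10 (SE 0.030, limma adjusted p = 0.00764), and 0.07 with the chromosome 14 medians removed (adjusted p = 0.0591, not called). Tln2, the second talin, averaged 4.67 ± 0.085 FPKM in SCC2, 4.49 ± 0.11 FPKM in SCC1 and 5.57 ± 0.10 FPKM in LLC1, with changes against LLC1 of -0.21 in SCC2 and -0.26 in SCC1 on the log2 scale, both called lower. Neither Tln2 call held with the chromosome 9 medians of -0.16 and -0.19 removed, at -0.05 and -0.07 (adjusted p = 0.223 and 0.1). Fermt3, the kindlin of blood cells, averaged 0.525 ± 0.061 FPKM in SCC2, 0.370 ± 0.043 FPKM in SCC1 and 0.440 ± 0.18 FPKM in LLC1 and was not tested.

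In the complex of ILK, PINCH and parvin, which joins the beta tail to actin, the scaffold and its partners did not move alike. Ilk, the pseudokinase scaffold, averaged 85.7 ± 1.2 FPKM in SCC2, 84.4 ± 0.88 FPKM in SCC1 and 91.5 ± 0.48 FPKM in LLC1, slightly lower in SCC2 (log2 change -0.09, SE 0.018, limma adjusted p = 0.000604) and SCC1 (log2 change -0.12, SE 0.018, limma adjusted p = 0.000122) than in LLC1. Ilk overlaps Rrp8 and Taf10 on the opposite strand, and Taf10 averaged 86.9 FPKM in SCC2, 99.5 FPKM in SCC1 and 91.9 FPKM in LLC1. Lims1, which encodes PINCH-1, was at 12.7, 13.2 and 12.7 FPKM in SCC2, 7.12, 7.24 and 7.45 FPKM in SCC1, and 10.5, 10.7 and 11.1 FPKM in LLC1. SCC2 was highest and SCC1 lowest with no overlap, and the log2 changes were 0.24 (SE 0.033, limma adjusted p = 4.78e-05) in SCC2 against LLC1 and -0.51 (SE 0.033, limma adjusted p = 7.51e-08) in SCC1 against LLC1. For SCC2 against SCC1 the change was 0.75 (SE 0.033, limma adjusted p = 1.5e-09). With the chromosome 10 medians of 0.10, -0.19 and 0.28 removed, they were 0.14, -0.31 and 0.47, all called.

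Parva, the widely expressed parvin, gave 61.4, 62.1 and 63.1 FPKM in SCC2, 41.2, 40.7 and 41.1 FPKM in SCC1, and 62.3, 60.5 and 62.5 FPKM in LLC1. SCC1 was lower than the other lines, which overlapped, with changes of -0.58 (SE 0.021, limma adjusted p = 6.56e-10) against LLC1 for SCC1 and 0.59 (SE 0.021, limma adjusted p = 2.64e-10) for SCC2 against SCC1, while SCC2 against LLC1 was 0.01 (SE 0.021, limma adjusted p = 0.683). Parvb, which binds Ilk in place of Parva, was at 33.5, 33.7 and 33.5 FPKM in SCC2, 51.5, 49.7 and 52.2 FPKM in SCC1, and 33.6, 33.9 and 35.6 FPKM in LLC1. SCC1 stood above the other lines, which overlapped, with log2 changes of 0.56 (SE 0.027, limma adjusted p = 6.6e-09) in SCC1 against LLC1, -0.59 (SE 0.027, limma adjusted p = 2.19e-09) in SCC2 against SCC1, and -0.03 (SE 0.027, limma adjusted p = 0.3) in SCC2 against LLC1. Parvb made up 35.1 ± 0.36% in SCC2, 55.5 ± 0.50% in SCC1 and 35.8 ± 0.64% in LLC1 of the 2 genes' FPKM, and their sum was 95.8 ± 0.82 FPKM in SCC2, 92.1 ± 1.5 FPKM in SCC1 and 96.2 ± 1.8 FPKM in LLC1. With the chromosome 15 medians removed, Parvb was at 0.40 in SCC1 against LLC1 and -0.15 between the subclones, both called, and at 0.23 in SCC2 against LLC1 (limma adjusted p = 2.32e-05), called in the higher direction.

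Vcl encodes vinculin, the linker of talin to actin, and its window above holds a CArG box. It was at 58.6, 57.1 and 60.5 FPKM in SCC2, 71.8, 71.7 and 69.9 FPKM in SCC1, and 85.3, 87.5 and 85.7 FPKM in LLC1. The lines did not overlap, with SCC2 lowest and LLC1 highest, and the log2 change was -0.55 (SE 0.024, limma adjusted p = 3.81e-09) in SCC2 against LLC1 and -0.27 (SE 0.024, limma adjusted p = 9.57e-07) in SCC1 against LLC1. Set against SCC1, SCC2 was at -0.27 (SE 0.024, limma adjusted p = 6.1e-07). Ap3m1 overlaps it on the opposite strand and averaged 13.4 FPKM in SCC2, 12.6 FPKM in SCC1 and 12.1 FPKM in LLC1, the reverse order of lines. Zyx, a LIM protein recruited to adhesions under tension, averaged 61.1 ± 1.2 FPKM in SCC2, 62.4 ± 2.2 FPKM in SCC1 and 67.3 ± 0.87 FPKM in LLC1. Its change against LLC1 was -0.14 (SE 0.027, limma adjusted p = 0.000732) in SCC2, not called with the chromosome 6 median removed (-0.04, adjusted p = 0.258), and -0.11 (SE 0.027, limma adjusted p = 0.00367) in SCC1. Zyx between the subclones was -0.03 (SE 0.027, limma adjusted p = 0.327), and 0.20 with the chromosome 6 medians removed (adjusted p = 3e-05).

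Tns3, a tensin that links beta tails to actin in fibrillar adhesions, was at 9.63, 9.59 and 9.73 FPKM in SCC2, 14.3, 14.2 and 14.3 FPKM in SCC1, and 12.0, 12.3 and 12.2 FPKM in LLC1. SCC2 was lowest and SCC1 highest, without overlap, at -0.31 (SE 0.027, limma adjusted p = 1.26e-06) in SCC2 against LLC1 and 0.21 (SE 0.027, limma adjusted p = 2.48e-05) in SCC1 against LLC1. The change between SCC2 and SCC1 was -0.52 (SE 0.027, limma adjusted p = 6.65e-09). With the chromosome 11 medians removed, SCC1 against LLC1 was 0.04 and not called (adjusted p = 0.172). Tns1 averaged 0.173 ± 0.040 FPKM in SCC2, 0.447 ± 0.049 FPKM in SCC1 and 0.251 ± 0.016 FPKM in LLC1 and was not tested.

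The adaptors and the kinase had their highest mean in SCC1 and their lowest in SCC2. Pxn, the scaffold paxillin, was at 30.4, 30.5 and 30.7 FPKM in SCC2, 42.8, 43.4 and 43.8 FPKM in SCC1, and 37.9, 37.1 and 38.0 FPKM in LLC1. No libraries of different lines overlapped, and the log2 changes were -0.29 (SE 0.021, limma adjusted p = 2.58e-07) in SCC2 against LLC1 and 0.20 (SE 0.021, limma adjusted p = 5.91e-06) in SCC1 against LLC1. SCC2 against SCC1 gave -0.49 (SE 0.021, limma adjusted p = 1.42e-09). The chromosome 5 medians were 0.06, 0.05 and 0.01 in the same comparisons. Ptk2, the focal adhesion kinase, stood at 20.7, 21.1 and 20.1 FPKM in SCC2, 30.1, 31.3 and 29.9 FPKM in SCC1, and 25.9, 25.7 and 26.5 FPKM in LLC1. It also did not overlap between lines, at -0.32 (SE 0.028, limma adjusted p = 1.12e-06), 0.22 (SE 0.028, limma adjusted p = 2.64e-05) and -0.54 (SE 0.028, limma adjusted p = 6.34e-09) in the same comparisons. With the chromosome 15 medians removed these were -0.06 and 0.05, not called (adjusted p = 0.0654 and 0.114), and -0.10 (adjusted p = 0.00841). Bcar1, the p130Cas adaptor, averaged 56.4 ± 1.4 FPKM in SCC2, 64.1 ± 0.69 FPKM in SCC1 and 62.3 ± 1.7 FPKM in LLC1, lower in SCC2 than in LLC1 (log2 change -0.14, SE 0.026, limma adjusted p = 0.000417) and in SCC1 (log2 change -0.18, SE 0.026, limma adjusted p = 4.14e-05), with SCC1 against LLC1 at 0.04 (SE 0.026, limma adjusted p = 0.18).

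**Figure D4:**
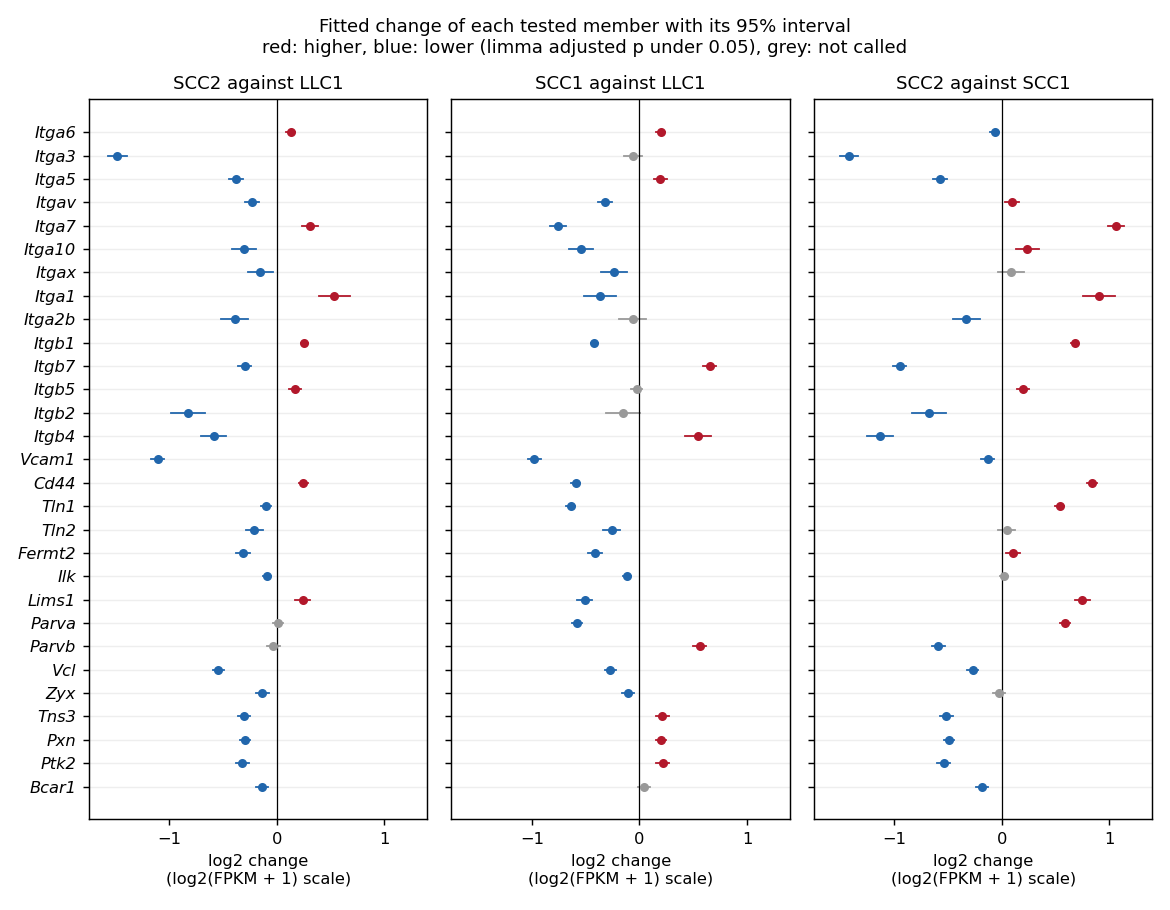
Fitted log2 change on the log2(FPKM + 1) scale with its 95% interval for each of the 29 tested members, in SCC2 against LLC1, SCC1 against LLC1 and SCC2 against SCC1 (red higher and blue lower at a limma adjusted p under 0.05, grey not called). Itga3 lies at -1.48 in SCC2 against LLC1 and Vcam1 is lower in both subclones, at -1.11 in SCC2 and -0.98 in SCC1.

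Members that share a chromosome were read beside the median of that chromosome, since these medians differed between the lines. With the median of its chromosome taken from every gene, 7 members were higher and 16 lower in SCC2 against LLC1, 5 higher and 17 lower in SCC1 against LLC1, and 11 higher and 13 lower in SCC2 against SCC1. Under that step 58.5% of all genes were called in SCC2 against LLC1 (28.8% higher, 29.7% lower), 60.6% in SCC1 against LLC1 (30.0% higher, 30.6% lower) and 67.5% in SCC2 against SCC1 (33.7% higher, 33.7% lower). Itga3 and Vcam1 kept log2 changes of -1.45 and -1.16 in SCC2 against LLC1, and Itgb1, Cd44 and Parva kept -0.48, -0.69 and -0.61 in SCC1 against LLC1.

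**Figure D5:**
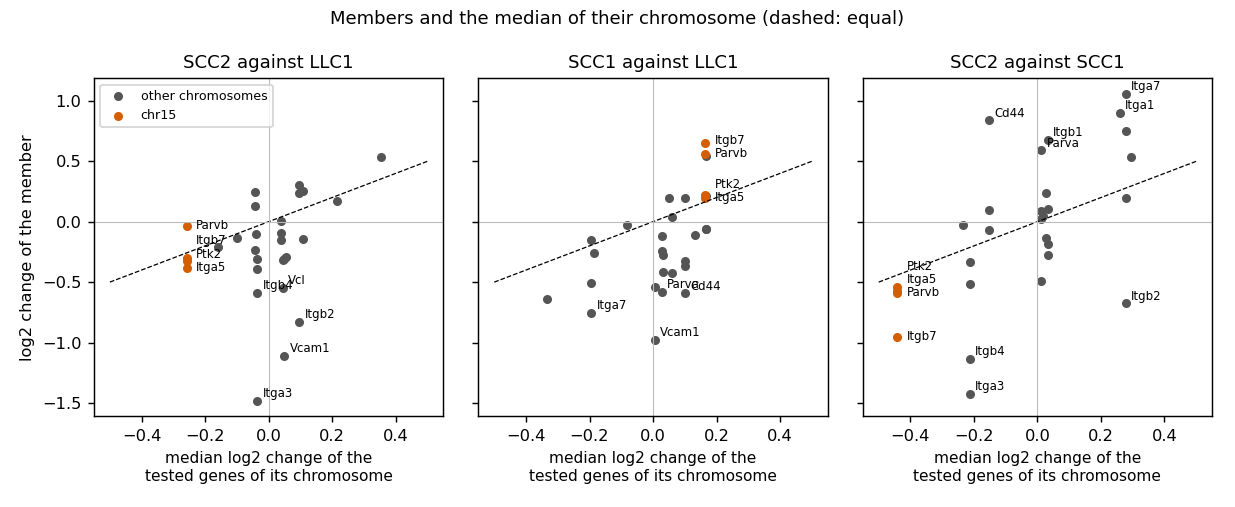
Fitted log2 change of each tested member against the median log2 change of the tested genes of its chromosome, in SCC2 against LLC1, SCC1 against LLC1 and SCC2 against SCC1, with the members of chromosome 15 in orange and a dashed line of equality. Ptk2 and Itga5 lie near the line in each panel, with chromosome 15 at -0.26, 0.16 and -0.44, while Itga3 and Vcam1 lie far below it in SCC2 against LLC1.

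Further genes of the same pathway were counted from 4 lists, 110 genes in the table and 84 tested. Of the 84, 24 rose and 38 fell in SCC2 against LLC1, 19 rose and 46 fell in SCC1 against LLC1, and 45 were higher and 31 lower in SCC2 than in SCC1. Of all genes tested, 34.7% were higher and 32.9% lower in SCC2 against LLC1, 39.2% and 30.9% in SCC1 against LLC1, and 37.0% and 39.4% in SCC2 against SCC1. The share of the 84 called was 73.8%, 77.4% and 90.5% in these comparisons, beside 67.6%, 70.1% and 76.3% of all genes. Of 16 tested matrix proteins and other ligands that integrins bind, 4 rose and 9 fell in SCC2 against LLC1, 1 rose and 13 fell in SCC1 against LLC1, and 11 were higher and 5 lower in SCC2 than in SCC1. Their median log2 change was -0.11, -0.50 and 0.33 in these comparisons, beside 0.01, 0.03 and -0.00285 for all genes. Thbs1, thrombospondin-1, averaged 25.8 ± 0.88 FPKM in SCC2, 3.71 ± 0.17 FPKM in SCC1 and 12.6 ± 0.34 FPKM in LLC1. Its log2 changes were 0.98 in SCC2 against LLC1, -1.53 in SCC1 against LLC1 and 2.51 in SCC2 against SCC1 (limma adjusted p = 1.49e-09, 3.36e-11 and 2.56e-13). The basement membrane chains Col4a1, Col4a2 and Lamc1, ligands of the collagen and laminin receptors, were lowest in SCC1. Col4a1 averaged 208 ± 3.0 FPKM in SCC2, 129 ± 2.5 FPKM in SCC1 and 211 ± 1.5 FPKM in LLC1. Col4a2 averaged 118 ± 1.0 FPKM in SCC2, 69.8 ± 0.84 FPKM in SCC1 and 117 ± 0.75 FPKM in LLC1. Lamc1 averaged 81.1 ± 1.3 FPKM in SCC2, 48.6 ± 0.15 FPKM in SCC1 and 74.6 ± 0.69 FPKM in LLC1. In SCC1 against LLC1 their log2 changes were -0.70, -0.73 and -0.61 (limma adjusted p = 5.27e-11, 2.11e-11 and 1.94e-10). The summed fibroblast markers, nearly all Col3a1, stood at 692 to 714 FPKM in SCC2, 258 to 268 FPKM in SCC1 and 572 to 598 FPKM in LLC1. Col3a1 and Lum had their lowest mean in SCC1, while Dcn, Pdgfra and Pdgfrb had theirs in SCC2, and their part in these results was not tested.

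Actin-binding relatives of the linkers gave 4 higher and 16 lower of 24 tested in SCC2 against LLC1, 4 higher and 14 lower in SCC1 against LLC1, and 12 higher and 10 lower in SCC2 against SCC1. Their median log2 change was -0.20, -0.15 and 0.13 in these comparisons. The share called was 83.3%, 75.0% and 91.7%, beside 67.6%, 70.1% and 76.3% of all genes. Sorbs3, the vinculin partner vinexin, averaged 9.87 ± 0.47 FPKM in SCC2, 2.49 ± 0.17 FPKM in SCC1 and 11.2 ± 0.35 FPKM in LLC1, with log2 changes of -0.17 in SCC2 against LLC1, -1.81 in SCC1 against LLC1 and 1.64 in SCC2 against SCC1 (limma adjusted p = 0.0072, 4e-11 and 4.07e-11). Actn1, an actin crosslinker that binds integrin tails, averaged 69.8 ± 0.95 FPKM in SCC2, 115 ± 1.8 FPKM in SCC1 and 85.9 ± 0.57 FPKM in LLC1, lowest in SCC2 and highest in SCC1. Tpm1, a tropomyosin of stress fibres, averaged 82.7 ± 2.1 FPKM in SCC2, 142 ± 3.1 FPKM in SCC1 and 141 ± 1.5 FPKM in LLC1, with a log2 change against LLC1 of -0.76 in SCC2 (limma adjusted p = 1.98e-10) and 0.01 in SCC1 (adjusted p = 0.841). Cnn2, a calponin, averaged 149.8 ± 2.5 FPKM in SCC2, 104 ± 3.3 FPKM in SCC1 and 180.2 ± 4.9 FPKM in LLC1 and was lower in both subclones, at -0.26 in SCC2 and -0.79 in SCC1 (limma adjusted p = 3.72e-06 and 3.4e-10).

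Of 32 adaptors and signalling proteins tested, 12 were higher and 10 lower in SCC2 against LLC1, 12 higher and 12 lower in SCC1 against LLC1, and 16 higher and 13 lower in SCC2 against SCC1. In SCC2 against LLC1 the share called, 68.8%, was near the 67.6% of all genes, which is no result about the list. The share called was 75.0% in SCC1 against LLC1, beside 70.1% of all genes, and 90.6% in SCC2 against SCC1, beside 76.3%. Fyn, a Src family kinase that acts with Ptk2, averaged 5.89 ± 0.19 FPKM in SCC2, 2.17 ± 0.070 FPKM in SCC1 and 4.64 ± 0.27 FPKM in LLC1, and Shc1, an adaptor, 60.3 ± 0.66 FPKM in SCC2, 44.4 ± 1.1 FPKM in SCC1 and 69.5 ± 1.1 FPKM in LLC1. For Fyn the log2 changes were 0.29 in SCC2 against LLC1, -0.83 in SCC1 against LLC1 and 1.12 in SCC2 against SCC1, each called (limma adjusted p = 0.000155, 2.15e-08 and 9.45e-10). The GTPases Rac1 and Cdc42, which drive protrusions, were both called in every comparison. Rac1 averaged 229 ± 3.2 FPKM in SCC2, 173 ± 0.89 FPKM in SCC1 and 188 ± 0.67 FPKM in LLC1. Cdc42 averaged 26.0 ± 0.67 FPKM in SCC2, 16.4 ± 0.17 FPKM in SCC1 and 23.0 ± 0.41 FPKM in LLC1. Both were highest in SCC2 and lowest in SCC1. Cdc42 lies with Tln1 on chromosome 4, and without the chromosome medians its changes were 0.21 in SCC2 against LLC1 and -0.13 in SCC1 against LLC1.

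Membrane partners of integrins gave 4 higher and 3 lower of 12 tested in SCC2 against LLC1, 2 higher and 7 lower in SCC1 against LLC1, and 6 higher and 3 lower in SCC2 against SCC1. The share called was 58.3% in SCC2 against LLC1, beside 67.6% of all genes, and 75.0% in both other comparisons, beside 70.1% and 76.3%. Slc3a2, the CD98 heavy chain that binds beta 1 tails, averaged 39.2 ± 0.66 FPKM in SCC2, 15.1 ± 0.15 FPKM in SCC1 and 22.0 ± 0.61 FPKM in LLC1, with log2 changes of 0.81 in SCC2 against LLC1, -0.51 in SCC1 against LLC1 and 1.32 in SCC2 against SCC1 (limma adjusted p = 4.22e-10, 1.4e-08 and 3.53e-12). Sdc1, of the syndecans, heparan sulphate co-receptors for matrix, averaged 83.9 ± 0.45 FPKM in SCC2, 54.3 ± 0.16 FPKM in SCC1 and 54.3 ± 0.22 FPKM in LLC1 and was higher in SCC2 than in both other lines. Sdc2 averaged 37.7 ± 0.51 FPKM in SCC2, 37.8 ± 0.73 FPKM in SCC1 and 57.6 ± 0.41 FPKM in LLC1 and was lower in both subclones than in LLC1, at -0.60 in SCC2 and -0.59 in SCC1. It lies on chromosome 15, and with that chromosome's medians removed the changes were -0.34 in SCC2 and -0.76 in SCC1. SCC2 against SCC1 was then called at 0.44 (limma adjusted p = 6.87e-09). Cd63, a tetraspanin, averaged 458 ± 8.0 FPKM in SCC2, 346 ± 5.8 FPKM in SCC1 and 389.9 ± 10.2 FPKM in LLC1, and its change in SCC1 against LLC1 was -0.17 and 0.02 with the chromosome 10 median removed.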

How the data were processed

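RNA of 9 libraries (3 each of SCC2, SCC1 and LLC1) was measured as FPKM, which the authors computed with cufflinks, per the series' design text. Before that, reads were cleaned with Trimmomatic and mapped with hisat2, per the same text. Builds GRCm38 and mm10 are named in the submitters' processing notes. Tool versions are not given in the sources used. The labels' protocols name RNeasy extraction and a SMARTER library kit, while the design text names mirVana extraction and a TruSeq stranded kit. It is therefore unknown if strand entered the counting, and overlapping genes are uncertain. FPKM is a share of its library and does not follow total RNA per cell.

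From the deposited FPKM, genes with at least 1 FPKM in at least 3 of the 9 libraries (10519 of 15768) were tested on log2(FPKM + 1), that is with 1 added to each value. The test was limma (version 3.58.1, R version 4.3.3), with a trended and robust eBayes step. A single fit held all 9 libraries and only the line as a factor. P-values were two-sided and adjusted by Benjamini-Hochberg over all genes tested, with a threshold of 0.05. The procedure was tested on simulated data. Whole fragments were worked back from the steps between low values, known up to a common factor per gene. All 12270 genes above 0 in every library came out whole within 0.001 of a fragment. These fragments entered voom with trimmed-mean scaling as an alternative, and they cover counting error only. Other steps ran in Python 3.11.15 (numpy 2.4.6, pandas 2.3.3, matplotlib 3.10.9). Chromosomes came from the GRCm38 RefSeq table by symbol, overlapping genes from GENCODE vM21, and promoter windows from RefSeq.

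Replicate numbers were checked for pairing: deviations of same-numbered libraries correlated at -0.068 to 0.089 and those of other pairs at -0.070 to 0.067, so the numbers were not taken as pairs. The members and lists were chosen with earlier results of these data known. The lymphocyte markers are not reported here. Members are given library by library where a line mean reached 5 FPKM and a called change reached 0.3 on the log2 scale, together with the most abundant alpha and beta chain. Up to 4 genes are named for each other list, those with the smallest adjusted p and a line mean of at least 5 FPKM. The 19 alternatives covered the pseudocount, filters, scaling, eBayes options, the 6 libraries of each pair of lines, the replicate block, chromosome medians, voom and each library left out.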

Additional observations from a re-analysis of the deposited data

Results flagged for a closer look

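In 11 of the 29 tested members the subclones were called on opposite sides of LLC1, as were 22.4% of all genes tested. Such calls fix the direction of the difference between SCC2 and SCC1, so the differences that follow are a description with no test. Their scale is log2(FPKM + 1), which understates the change of low genes such as Itga1 and Itgb4. In 5 of them SCC2 was above and SCC1 below LLC1, with log2 differences of SCC2 minus SCC1 of 1.06 for Itga7, 0.90 for Itga1, 0.84 for Cd44, 0.75 for Lims1 and 0.68 for Itgb1. In the other 6 SCC2 was below and SCC1 above LLC1, with differences of -1.13 for Itgb4, -0.95 for Itgb7, -0.58 for Itga5, -0.54 for Ptk2, -0.52 for Tns3 and -0.49 for Pxn. Itgb4 averaged 0.378 ± 0.011 FPKM in SCC2 and passed the filter only through the lines where it is high, so its low level in SCC2 supports nothing. Both calls against LLC1 rest on the same 3 LLC1 libraries. With chromosome medians removed, Itga5 and Tns3 were no longer called in SCC1 against LLC1, Itgb7 was no longer called in SCC2 against LLC1, and Ptk2 was called in neither.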

How the results depend on the processing

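Over 19 alternatives, 1638 values were computed for the 87 member results (29 members in 3 comparisons). Of these, 1609 kept a call in its direction or stayed uncalled, 15 lost the call, 9 gained one and 5 reversed. Removal of the chromosome medians alone gave 10 of the 15 lost calls and 2 of the 9 gained. Results that stayed uncalled could change sign, such as Itgb2 in SCC1 against LLC1, at 0.04 with the chromosome 10 median removed. A reversal was a change of sign with a call before or after it. All reversals came with chromosome medians removed: Itgb5 at -0.044 and Parvb at 0.23 in SCC2 against LLC1, and Itga6 at 0.087, Itgb5 at -0.081 and Zyx at 0.20 in SCC2 against SCC1. The same step left 5 members higher in SCC1 against LLC1, against 8 without it. Leaving out each library in turn gave 7 members higher and 19 to 20 lower in SCC2 against LLC1, 8 higher and 16 to 17 lower in SCC1 against LLC1, and 10 to 11 higher and 14 lower in SCC2 against SCC1. With the replicate number as a block, 7046 genes were called in SCC2 against LLC1, 7306 in SCC1 against LLC1 and 7962 in SCC2 against SCC1, and no member call changed. The block rests on shared numbers only: 2 of the 9 libraries correlated best with a library of their own number. Limits: SCC2 and SCC1 are 1 clone each, the libraries of a line may be technical repeats, FPKM sees no change in total RNA, and 11 members were under the filter.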
